A study of Mus musculus with 7 samples.

Results

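The 10 genes described here were 9 receptor tyrosine kinases (Alk, Ret, Met, Egfr, Erbb2, Erbb3, Fgfr1, Fgfr2 and Fgfr3) and Mdk, which encodes midkine, a secreted growth factor that can act through ALK. They were taken by name, 10 of the 30879 genes measured, and all 10 had unique molecular identifiers (UMIs) in the cells used. Cells were taken if they held at least 1000 UMIs, and organoid cells were split by their UMIs of Mki67 and Top2a, genes of dividing cells. These cell filters use measured values, so the levels of Mki67 and Top2a are no result here.

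Receptor tyrosine kinases span the cell membrane, bind a growth factor outside the cell and phosphorylate tyrosines inside it, which starts the RAS-MAPK and PI3K-AKT cascades. Feedback inhibitors such as the Sprouty, SPRED and DUSP proteins then dampen the signal. In the thyroid, EGF and FGF signals act on the growth of follicular cells, RET is normally a receptor of the calcitonin-producing C cells, and rearrangements of RET and ALK occur in thyroid cancer.

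Live single cells were sorted into 384-well plates and sequenced by SORT-seq, a method that reads the 3' end of each transcript. Thyroid tissue of wild-type C57BL/6 mice (2 samples) was compared with thyroid follicular cell organoids (TFCOs), which are three-dimensional cultures grown from such tissue, at late passage (3 samples) and at early passage (2 samples). The study used female mice as surplus material, and neither an age nor the animal behind each sample is given in the sources used here. All TFCO samples were grown untreated in the same expansion medium, with R-spondin 3, the TGF-beta receptor inhibitor A83-01, forskolin, which raises cAMP, EGF at 500 ng/mL and FGF10 at 100 ng/mL. The ligands of EGFR and of one form of FGFR2 were therefore present in every TFCO sample, and medium, passage and culture cannot be told apart from each other in the comparison with tissue. Where nothing ties a sample to a separate mouse or line, p-values measure only the spread between these samples.

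Total depth ran from 1406925 to 4703472 UMIs per sample, and 2035 of 2590 cells held at least 1000 UMIs, 1457 from TFCOs and 578 from tissue. All of these TFCO cells were used, and tissue cells were grouped by clusters and marker genes. Tissue gave 96 TFC-like cells (thyroid follicular cells, TFCs), 256 endothelial-like, 58 immune-like, 53 mural-like and 21 stromal-like cells. All 18 TFC markers were detected in every TFCO sample, but their summed level was 120 to 214 UMIs per 10000 in TFCOs against 1159 and 1664 in tissue TFC-like cells. Late sample 2 and early sample 1 stood apart with the deepest cells, at medians of 12381 and 11059 UMIs against 5011 to 8954 in the other TFCO samples, and with the most cycling cells, 25.0% and 24.7% against 5.11% to 12.0%. A further 2 tissue TFC-like cells, both of tissue sample 2, held 268847 and 151110 UMIs. Levels below are mean UMIs per 10000 UMIs of a cell, averaged over the cells of a sample. Levels were not scaled by the gene's length, and whether counts move with that length was not tested. A lower mean cannot tell fewer expressing cells from less RNA per cell.

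Alk was the member with the largest difference between TFCOs and tissue. ALK is a receptor best known from the developing nervous system. The mean level of Alk was 0.522 and 0.670 UMIs per 10000 in the TFC-like cells of the 2 tissue samples. In late TFCOs it was 3.36, 15.4 and 8.77, and in early TFCOs 11.1 and 6.15. Every TFCO sample was above both tissue samples, and the TFCO samples themselves spread over a wide range. The difference was 2.96 (SE 0.75) on the log2 scale of the mean plus 0.5, which is a 7.81-fold change on that scale with a 95% interval of the log2 difference from 1.35 to 4.58 (limma, adjusted p = 0.0318). Of the 9 members tested, 2 were called, Alk and Ret. Over all 12116 genes tested, 7.68% were called, 5.03% as higher in TFCOs, and the median gene was 0.19 higher on the log2 scale. Non-overlap of the same kind, with all TFCO samples above tissue, was seen for 35.8% of the genes tested, and non-overlap in either direction for 45.8%, against 4 of the 9 members (Alk, Ret, Erbb3 and Fgfr1). Without early sample 1 the difference was 2.76 and the adjusted p was 0.0740, and in cells of at least 2000 UMIs it was 2.60 with an adjusted p of 0.101. The call was also lost, with the direction kept, with a pseudocount of 1, without the filter on low values and when levels were taken from summed UMIs.

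Alk was also spread widely over TFCO cells. UMIs of Alk were counted in 1170 of 1457 TFCO cells (80.3%), 15981 UMIs in all, and the highest level in a cell was 69.3 per 10000, in late sample 2. The share of cells with a UMI was 56.7%, 98.3% and 84.3% in the late samples and 95.3% and 68.4% in the early samples. Since such a share can move with depth, each cell was also thinned to 1000 UMIs, after which it was 21.5%, 68.3% and 43.8% in late TFCOs, 58.7% and 31.3% in early TFCOs, and 6.38% and 8.16% in tissue TFC-like cells. The order of the 5 TFCO samples was the same before and after thinning. Late sample 2 and early sample 1, the deepest ones, had the highest shares both before and after thinning. The part of depth in that order was not tested.

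In the gland, the TFC-like cells did not hold the most Alk. Its mean was 1.19 and 1.27 UMIs per 10000 in endothelial-like cells, 2.12 and 1.31 in mural-like cells, 1.13 and 1.89 in stromal-like cells and 1.23 and 0.733 in immune-like cells, all above the TFC-like cells. These means rest on few molecules, with 163 UMIs in endothelial-like cells and 12 in stromal-like cells. With each cell thinned to 1000 UMIs, 8.76% and 9.24% of endothelial-like cells held a UMI, close to the TFC-like shares given above. Every tissue class was below every TFCO sample.

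The ligand Mdk was sparse throughout. It had 3 UMIs in the 96 tissue TFC-like cells, all in tissue sample 2, and 177 UMIs in 1457 TFCO cells. Its mean was 0 and 0.191 UMIs per 10000 in tissue, 0.111, 0.164 and 0.101 in late TFCOs and 0.183 and 0.120 in early TFCOs, so the groups overlapped. The log2 difference was 0.12, with a 95% interval from -0.24 to 0.48. The highest value was in the 15 stromal-like cells of tissue sample 1 at 1.45, while the 6 stromal-like cells of tissue sample 2 held none, which allows up to 1.51 per 10000. The other ALK ligands were sparse in TFCOs as well. Alkal1, Alkal2 and Ptn, which encode ALK-activating growth factors, reached at most 0.158, 0.0537 and 0.415 UMIs per 10000 in a TFCO sample, and of these only Ptn passed the filter on low values (0.22, SE 0.20, adjusted p = 0.480). In tissue, Ptn was at 3.97 and 4.72 in the 15 and 6 stromal-like cells of the 2 samples, above Mdk. It was at 1.02 and 0.191 in mural-like cells and at 0.213 and 0.148 in TFC-like cells.

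Ret went the other way. Tissue TFC-like cells held a mean of 0.489 and 0.167 UMIs per 10000, against 0.0471, 0.0258 and 0.0148 in late TFCOs and 0.0231 and 0.0819 in early TFCOs. Both tissue samples were above all TFCO samples, a pattern of 10.1% of the genes tested. The log2 difference of -0.59 (SE 0.17) had an adjusted p of 0.0444 (limma), beside 2.65% of all genes called as lower. The count behind it is small, at 29 UMIs in 10 of the 96 tissue cells and 44 UMIs in 37 of the 1457 TFCO cells, and 15 of the 29 lay in the 2 deepest tissue cells. Without those 2 cells the adjusted p was 0.0497. Leaving out early sample 1 or late sample 3 ended the call, with log2 differences of -0.55 and -0.58 and adjusted p-values of 0.0741 and 0.0601.

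C cell markers differed the same way as Ret. The summed level of the 7 C cell markers in the table was 3.48 and 2.81 UMIs per 10000 in the tissue TFC-like cells, with 5 and 6 of them detected, and 0.0684 to 0.209 in TFCOs, with 4 to 6 detected. Endothelial-like cells held these markers too, at 3.61 and 1.11, with 7 and 4 detected. Calca, which encodes calcitonin, was at 1.57 and 0.994 in the tissue TFC-like cells and at most 0.00205 in a TFCO sample. Of the 10 tissue TFC-like cells with Ret, 3 also held a UMI of Calca, against 16 of all 96 TFC-like cells. Those 3 cells carried 4 of the 8 Ret UMIs of tissue sample 1 and 15 of the 21 of tissue sample 2. In tissue sample 2 the 2 deepest cells, both with Ret, also carried 15 of the 21, so these sets of cells overlap. The share of cells in which a gene is counted can move with depth. Cells of the same cluster that scored higher for C cell, parathyroid, erythroid or Schwann markers than for TFC markers (17 cells) had been set aside, and these held 2 further UMIs of Ret. In the other tissue classes Ret had UMIs in endothelial-like cells, at 0.144 and 0.118, and none in mural-like, immune-like or stromal-like cells. Those counts of 0 allow up to 0.283 and 0.293 in mural-like, 0.134 and 0.169 in immune-like and 0.331 and 1.51 in stromal-like cells. Except for immune-like cells of tissue sample 1, these limits lie above the endothelial-like levels, so absence of Ret was not shown. Whether the Ret UMIs come from follicular cells was not tested.

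**Figure D1:**
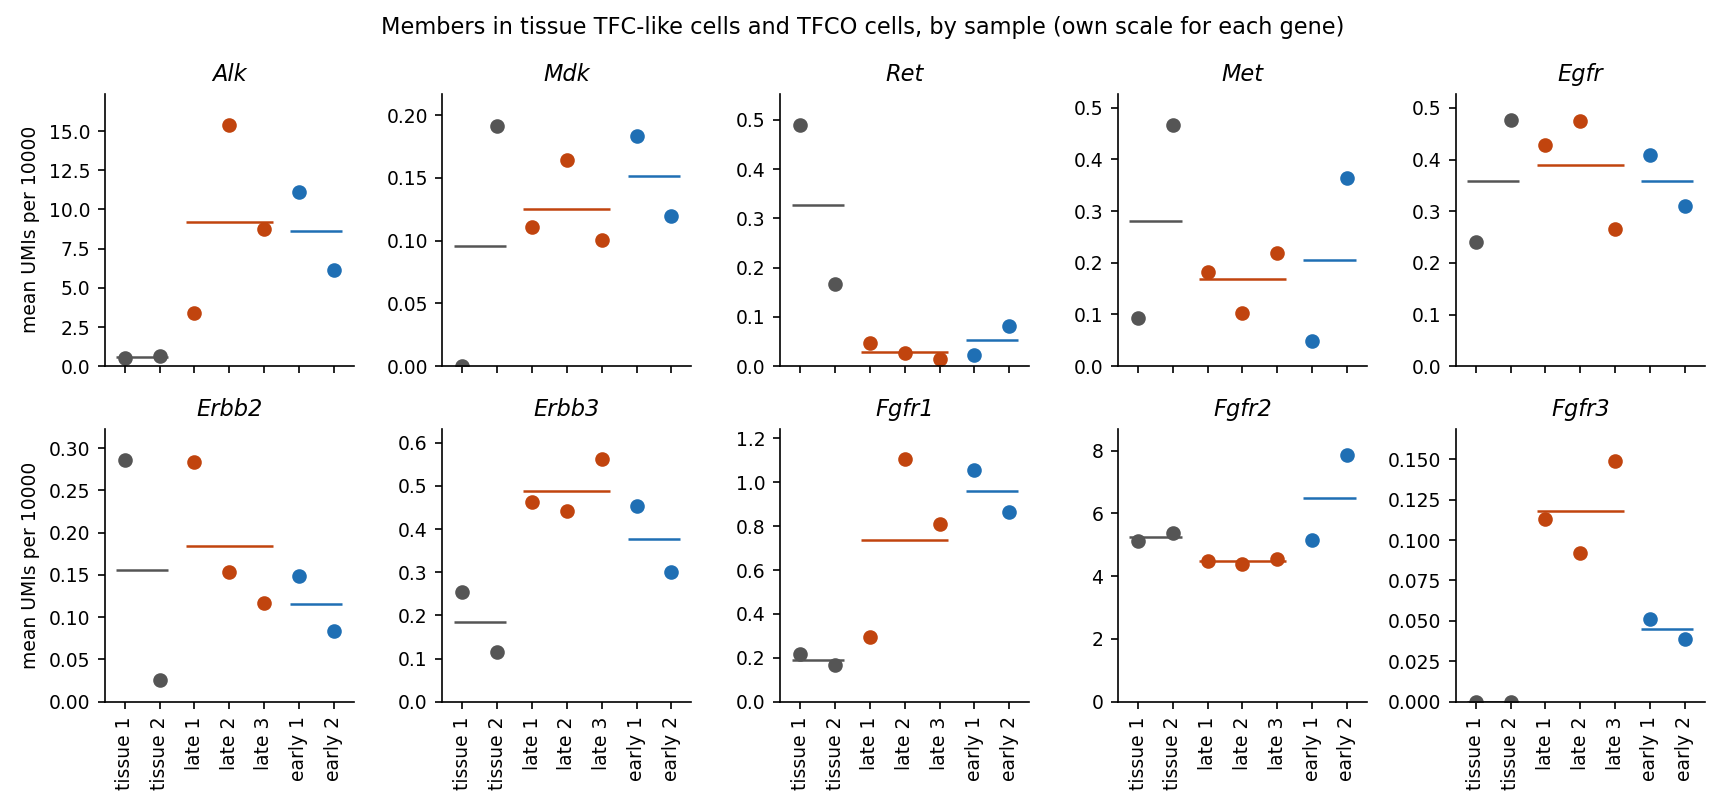
Mean UMIs per 10000 (vertical axis, linear and scaled for each gene) of the 10 members in each sample, in tissue TFC-like cells (gray), late TFCO cells (red) and early TFCO cells (blue); points are samples and horizontal lines are group means. Alk lies at 3.36 to 15.4 in TFCOs against 0.522 and 0.670 in tissue, Ret is lower in all TFCO samples, and Fgfr2 lies between 4.37 and 7.87 in every sample.

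The receptor of HGF and the receptors of the EGF family were at low levels in both tissue and TFCOs. Met, the HGF receptor, was at 0.0929 and 0.467 UMIs per 10000 in tissue, at 0.183, 0.102 and 0.218 in late TFCOs and at 0.0479 and 0.364 in early TFCOs. The groups overlapped (log2 difference -0.16, 95% interval -0.78 to 0.45), and 41 of the 50 tissue UMIs came from the 2 deepest cells. Egfr, the receptor of the EGF supplied in the medium, was at 0.241 and 0.477 in tissue and at 0.265 to 0.474 in TFCOs, again with overlap (0.034, 95% interval -0.49 to 0.56). Erbb2, which binds no ligand of its own and pairs with the other ERBB receptors, was at 0.286 and 0.0261 in tissue and at 0.0831 to 0.283 in TFCOs (0.0092, 95% interval -0.44 to 0.45). These intervals include differences of either sign, and no change of Met, Egfr or Erbb2 was detectable at this depth. The 2 deepest tissue TFC-like cells also held 22 of the 30 tissue UMIs of Egfr and 11 of the 14 of Erbb2.

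Erbb3, a receptor of neuregulins with little kinase activity of its own, was separated but did not pass the test. It was at 0.254 and 0.115 UMIs per 10000 in tissue, 0.463, 0.441 and 0.563 in late TFCOs and 0.453 and 0.300 in early TFCOs. Of its 21 UMIs in tissue TFC-like cells, 15 came from the 2 deepest cells. All 5 TFCO samples were above both tissue samples, with a log2 difference of 0.45 (SE 0.23) and an adjusted p of 0.211 (limma). Among the tissue classes, the levels of Egfr were clearly uneven. Stromal-like cells held 1.55 and 1.31 UMIs per 10000 of Egfr, from 16 UMIs in 21 cells, against 0.227 and 0.103 in endothelial-like and 0.0964 and 0 in immune-like cells. No UMI of Erbb2 or Erbb3 was counted in the stromal-like cells, which allows up to 0.331 and 1.51 UMIs per 10000 in the 2 samples.

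The FGF receptors differed from each other. FGFR1 and FGFR2 bind overlapping sets of FGFs, and the epithelial form of FGFR2 is the receptor of FGF10. In tissue TFC-like cells Fgfr1 was at 0.218 and 0.165 UMIs per 10000, compared with 0.293, 1.10 and 0.810 in late TFCOs and 1.05 and 0.863 in early TFCOs. All TFCO samples were above tissue, but the log2 difference of 0.93 (SE 0.39) had an adjusted p of 0.139 and was not called, and late sample 1 was closer to tissue than to the other TFCO samples. Without late sample 1 the difference was 1.07 and the adjusted p was 0.0213. Over all samples left out in turn, the difference ran from 0.82 to 1.07. Of 23 alternatives to the processing, 17 left Fgfr1 not called. Within tissue, Fgfr1 was highest in stromal-like cells, at 2.26 and 0.799. The first value rests on 19 UMIs in 11 of 15 cells and the second on 3 UMIs in 1 of 6 cells. Mural-like cells of tissue sample 2 were at 0.626.

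Fgfr3 was near the limit of detection. No UMI was counted in the tissue TFC-like cells, which allows up to 0.236 and 0.0539 UMIs per 10000 in the 2 samples (3 counts, counting error only). TFCOs held 148 UMIs in 109 of 1457 cells, at means of 0.113, 0.0923 and 0.149 in the late samples and 0.0509 and 0.0388 in the early samples. The 3 late values were above the limit of tissue sample 2 and all 5 were under that of tissue sample 1. These limits come from pooled UMIs, and 2 cells of 268847 and 151110 UMIs held most of the 556642 of tissue sample 2. The levels are means over cells, so the 2 measures are unlike there. A difference was not detectable at this depth, and Fgfr3 was below the filter for the test. In tissue, 10 of its UMIs were found in endothelial-like cells.

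Fgfr2 lay between 3.99 and 7.87 UMIs per 10000 in the 5 named tissue classes and the TFCO samples. The 77 tissue cells of an unnamed cluster, led by hemoglobin genes, were at 7.62 and 8.43, and the 17 cells set aside at 2.61 and 5.74. In tissue TFC-like cells it was at 5.11 and 5.37 UMIs per 10000, compared with 4.49, 4.37 and 4.55 in late TFCOs and 5.14 and 7.87 in early TFCOs, and the log2 difference was 0.026 with a 95% interval from -0.86 to 0.91. The endothelial-like cells, at 6.56 and 6.84, and the immune-like cells, at 4.45 and 5.07, were at similar levels. In the GENCODE annotation of GRCm38, Fgfr2 (ENSMUSG00000030849.18) is drawn on chromosome 7 from 130162451 to 133123350 on the minus strand, a span of 2961 kb that overlaps 69 other genes, 14 of them protein-coding genes on the same strand, and 2.47% of the 50-base stretches of its transcripts are also found in Ctbp2. The RefSeq gene spans 104 kb. Of the 14 same-strand protein-coding genes only Ctbp2 is in the table, and genes such as Ate1, Ikzf5, Oat and Chst15 are not. On the other strand, all protein-coding genes of the span except 5430419D17Rik and Hmx3 are in the table. Since the annotation behind the counts is not given in the sources used here, reads of neighboring genes cannot be told apart from reads of Fgfr2. The count of Fgfr2 is uncertain, and whether it holds reads of the missing genes was not tested.

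The other members have compact or less crowded positions in the same annotation. Alk (ENSMUSG00000055471.7) lies on chromosome 17 from 71868972 to 72604627 on the minus strand, with 4 small genes inside it and none of them in the table or protein-coding. This annotation does not hold every gene measured. Gm49980, described below, is missing from it, so whether that gene overlaps Alk was not tested. Ret (ENSMUSG00000030110.13) lies on chromosome 6 from 118151745 to 118197718 with no overlapping gene, and Fgfr1 (ENSMUSG00000031565.18) on chromosome 8 from 25513654 to 25575718 with 1 antisense gene. Genes on the opposite strand also overlap Egfr, Erbb2 and Fgfr3. Of these, Egfros at Egfr and Mien1 at Erbb2 are in the table, and Gm25048 at Erbb2 and G630022F23Rik at Fgfr3 are not. Whether counting used strand is not given in the sources used here and was not tested. The transcripts of Fgfr3 shared 11.6% of their 50-base stretches with other genes, against 0 for Alk, Ret, Met, Erbb2 and Erbb3.

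**Figure D2:**
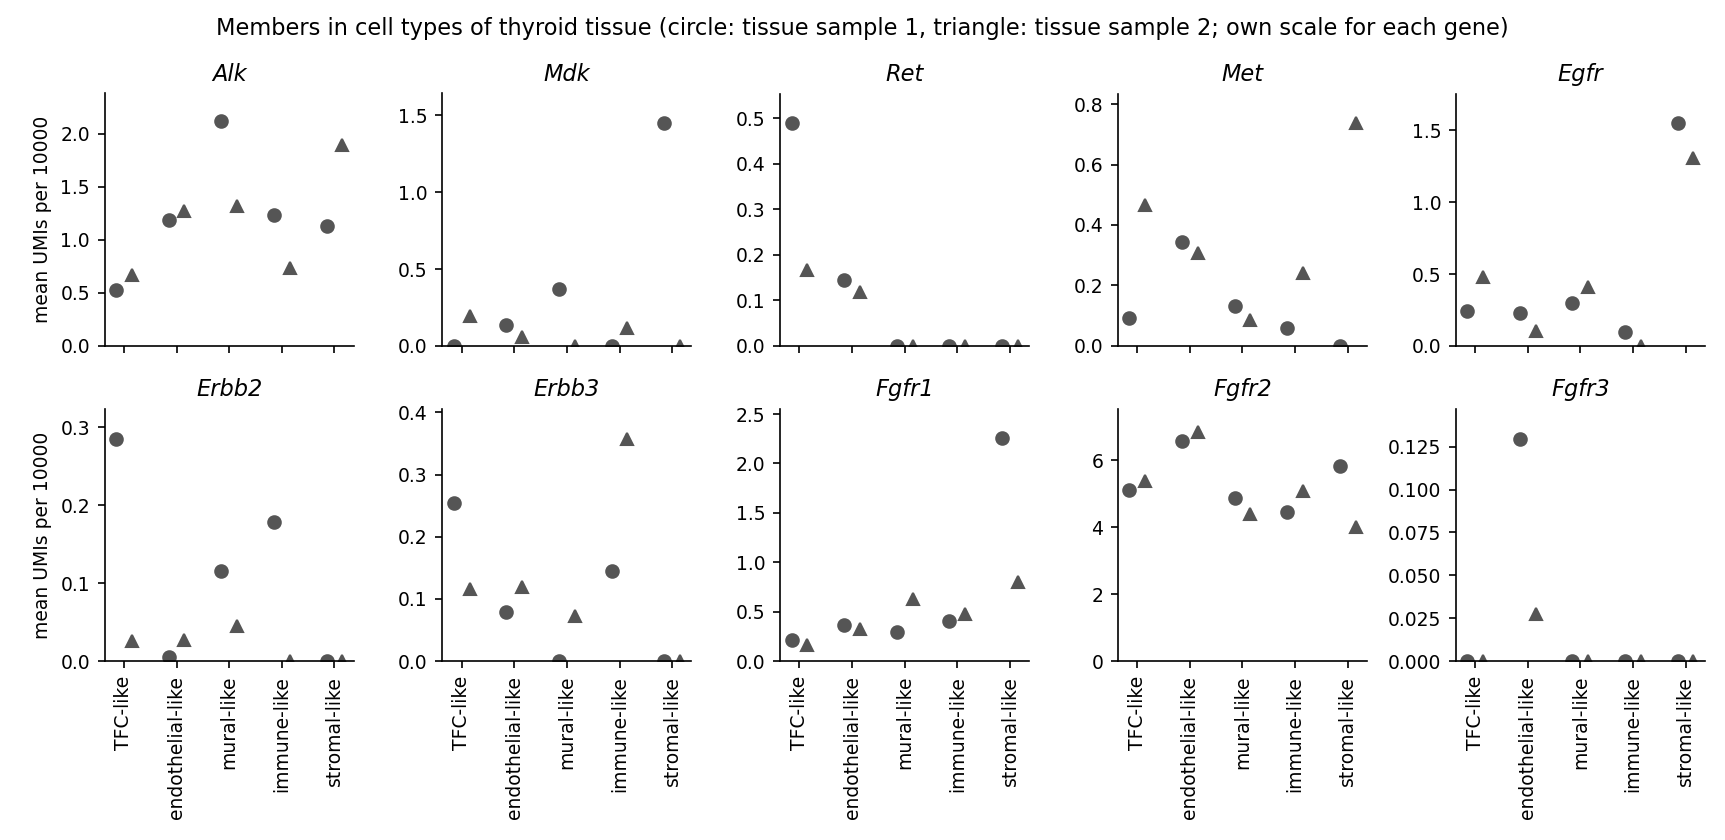
Mean UMIs per 10000 (vertical axis, linear and scaled for each gene) of the members in 5 cell classes of thyroid tissue, with a circle for tissue sample 1 and a triangle for tissue sample 2. Stromal-like cells hold the highest Egfr, at 1.55 and 1.31, Ret has UMIs in TFC-like and endothelial-like cells, and Fgfr2 is at 3.99 to 6.84 in all classes shown. The counts of 0 for Ret in the other classes allow limits of 0.134 to 1.51.

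No member was called between late and early TFCOs, where 2 of 12116 genes (0.0165%) were called and 19.9% had an unadjusted p under 0.05. The late samples averaged 9.17 ± 6.01 UMIs per 10000 of Alk (SD, n = 3) and the early samples 8.64 ± 3.52 (SD, n = 2), and the log2 difference of -0.087 had a 95% interval from -0.997 to 0.824. For Fgfr2 the late samples all lay under the early samples, at 4.47 ± 0.0873 against 6.50 ± 1.93 (log2 difference -0.47, SE 0.23, limma, adjusted p = 0.274). Fgfr3 was higher in all late samples, at 0.118 ± 0.0286 against 0.0449 ± 0.00858, and was not tested because of its level. Non-overlap between late and early samples was seen for 39.5% of the genes tested.

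Cycling cells were taken as those with at least 2 UMIs of Mki67 and Top2a together and noncycling cells as those with none. There were 19, 90 and 29 cycling cells in the late samples and 58 and 16 in the early samples, and the sample was kept as a block in the fit. Cycling cells were deeper in each sample, with medians of 7999 to 17646 UMIs against 4430 to 11199 in noncycling cells.

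Alk was higher in cycling cells of all 5 samples. It was at 5.79, 19.0 and 12.5 UMIs per 10000 in the cycling cells of the late samples against 3.09, 14.5 and 8.64 in their noncycling cells. In the early samples it was at 14.9 and 10.8 against 10.2 and 6.02. The log2 difference of 0.60 (SE 0.11) had an adjusted p of 0.00429 (limma), a 1.52-fold change with log2 differences from 0.38 to 0.81 in single samples. Of 12095 genes tested, 2.46% were called and 2.12% were called as higher in cycling cells, and 8.63% were higher in all 5 samples. When cycling cells were called after each cell had been thinned to 1000 UMIs, the log2 difference was 0.57 and the adjusted p was 0.0251. With 1 UMI of Mki67 or Top2a taken as enough, it was 0.25 with an adjusted p of 0.163. In noncycling cells alone the mean of Alk was at least 3.09 in each TFCO sample, above both tissue samples.

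Fgfr1 was also higher in the cycling cells of all 5 samples but was not called. It was at 0.314, 1.60 and 1.15 UMIs per 10000 in cycling cells of the late samples against 0.272, 0.959 and 0.763 in noncycling cells, and at 1.63 and 1.81 against 0.808 and 0.802 in the early samples. The log2 difference of 0.50 (SE 0.13) had an adjusted p of 0.0513 (limma). Without late sample 1, where both states were low, it was 0.61 and the adjusted p was 0.0402. Over all samples left out in turn, it ran from 0.42 to 0.61, with adjusted p-values up to 0.221. Fgfr3 was higher in 5 of 5 samples as well, by 0.020 to 0.32 (log2 difference 0.11, adjusted p = 0.581).

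The other members were not called between the states. Fgfr2 had a log2 difference of -0.23 (95% interval -0.50 to 0.044), Erbb2 of -0.11 (-0.31 to 0.085), Met of -0.11 (-0.34 to 0.13), Mdk of -0.094 (-0.29 to 0.10), Egfr of -0.079 (-0.35 to 0.19) and Erbb3 of 0.016 (-0.24 to 0.27). Ret was below the filter for the test. The single-sample differences of Met, Egfr, Erbb2, Erbb3, Fgfr2 and Mdk had both signs. None of the 9 members tested was lower in cycling cells of all 5 samples, which 5.73% of genes were. The median over the 9 members tested was -0.079, beside a median of 0.0064 over all genes tested.

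**Figure D3:**
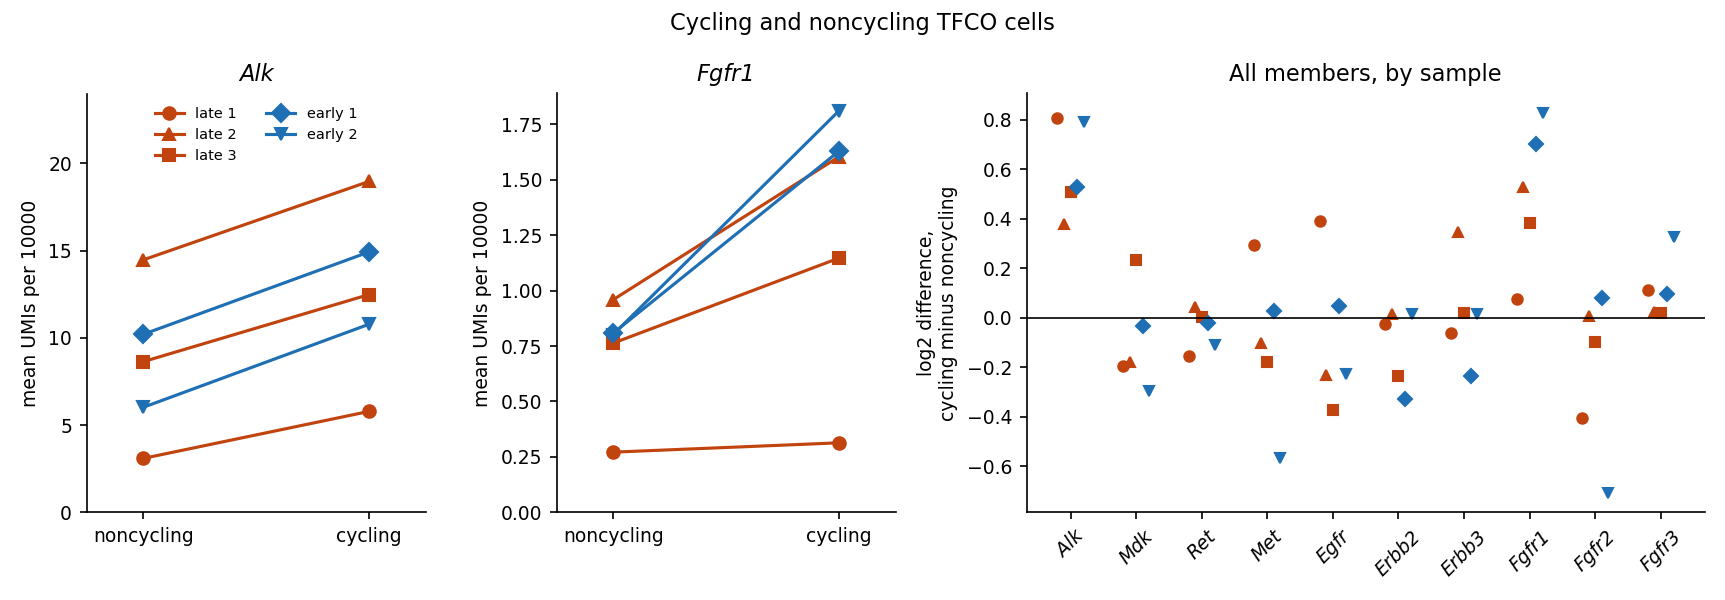
Left and middle, mean UMIs per 10000 of Alk and Fgfr1 in noncycling and cycling cells, with a line for each TFCO sample (late red, early blue); right, the log2 difference between cycling and noncycling cells for each member and sample. The cycling value lies above the noncycling one in all 5 samples for Alk and for Fgfr1, while Met, Egfr, Erbb2, Erbb3, Fgfr2 and Mdk lie on both sides of 0.

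The noncycling cells were also grouped, within each sample, by their level of Tg, which encodes thyroglobulin, the protein from which thyroid hormone is made. This grouping was chosen after the data were seen, and all 10 members were compared. Alk was at 3.59, 15.6 and 11.4 UMIs per 10000 in the lowest-Tg cells of the late samples against 2.29, 14.1 and 5.92 in the highest-Tg cells. In the early samples it was at 13.3 and 8.36 against 7.43 and 5.30. The lowest-Tg cells were above the highest-Tg cells in 5 of 5 samples, with a mean log2 difference of 0.60 ± 0.29 (SD, n = 5; exact two-sided permutation test, p = 0.0625, the smallest that 5 pairs allow). In late sample 2 and early sample 2 the middle cells were the lowest, so the difference was not stepwise in every sample.

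Fgfr1 had the same direction in 5 of 5 samples, by 0.35 ± 0.20 (SD, n = 5; exact two-sided permutation test, p = 0.0625). It was at 0.342, 1.19, 0.942, 1.11 and 0.953 UMIs per 10000 in the lowest-Tg cells of late samples 1, 2 and 3 and early samples 1 and 2 against 0.196, 0.750, 0.677, 0.531 and 0.834 in the highest-Tg cells. None of the other 8 members had the same sign in all 5 samples. The share of all genes with 1 sign in all 5 samples is not given for the Tg groups. For cycling against noncycling cells, a different grouping, that share was 14.4%. The pattern of Alk and Fgfr1 by Tg therefore has no background beside it. Tg itself averaged 141 to 303 of 10000 UMIs in the highest-Tg cells and 27.8 to 55.2 in the lowest-Tg cells.

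**Figure D4:**
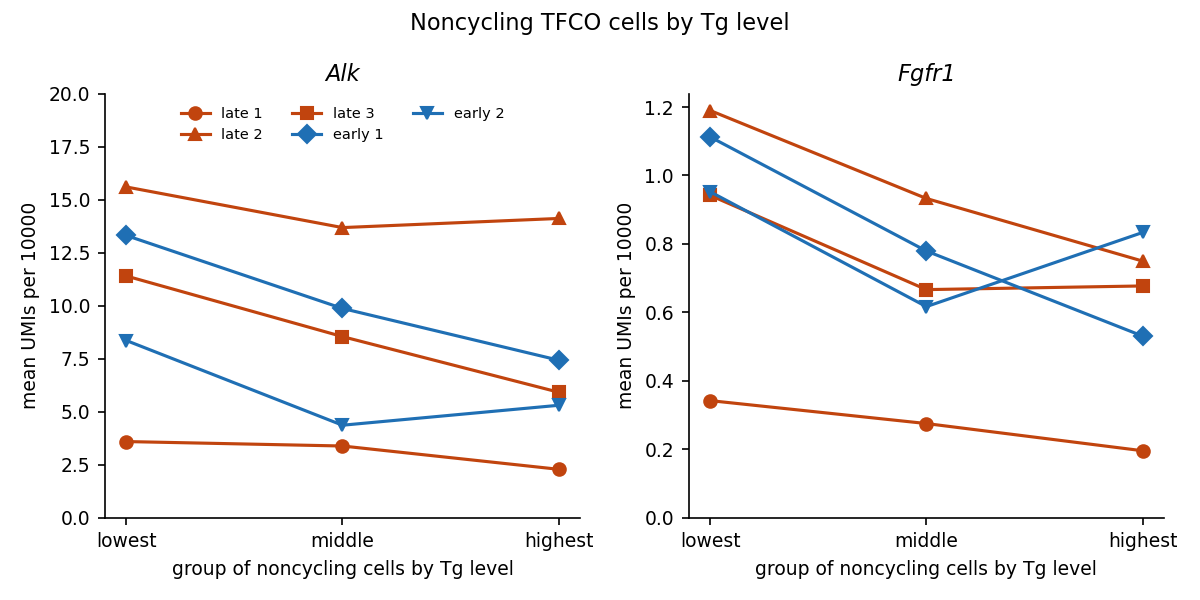
Mean UMIs per 10000 of Alk (left) and Fgfr1 (right) in noncycling TFCO cells in the lowest, middle and highest group by Tg level, with a line for each sample (late red, early blue). The lowest-Tg cells lie above the highest-Tg cells in all 5 samples for both genes.

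Genes whose pattern was most like that of a member were sought over 19 profiles (tissue classes by sample and TFCO samples by cycling state), among 10763 genes. The profiles share libraries and depth, so the correlations are descriptions. Alk was most like Gm49980, a predicted gene (Pearson's r = 0.983), and Aqp11, a water channel of the endoplasmic reticulum (r = 0.963). Gm49980 was at 9.04, 53.7 and 25.4 UMIs per 10000 in the late and 57.1 and 18.0 in the early samples, and over the cells of a sample its level correlated with that of Alk at r = 0.707 to 0.794. The position of Gm49980 is not in the annotation used here, so whether it overlaps Alk was not tested. Egfr was most like B230354K17Rik (r = 0.875) and Gpr153 (r = 0.853), Erbb3 most like Aagab (r = 0.942) and Galnt1 (r = 0.929), and Fgfr1 most like Atp10a (r = 0.814) and Nsdhl (r = 0.802). For Fgfr2 these were Gm9496 (r = 0.893) and Gm37240 (r = 0.890), and for Mdk Klhl33 (r = 0.920) and Ogn (r = 0.915), an extracellular matrix gene that was at most 0.0349 in TFCO profiles and 5.13 in tissue.

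The wells of all plates carry the same 384 barcodes, and 374 of the 383 barcodes found in TFCO cells occurred in at least 2 samples, so dependence on the barcode was measured. No pair of cells held identical values. Between cells that shared a barcode on separate TFCO plates, the correlation was 0.0018 for Alk and -0.0035 for Fgfr3, and it lay between -0.015 and 0.047 for the other members except Fgfr2, at 0.082. None of the 10 was above 0.1, a level that 11% of 19498 genes passed. In tissue, Egfr at 0.115 and Mdk at 0.106 were above it, beside 17.3% of genes, from 216 pairs of cells. In TFCO cells of the barcodes that tissue TFC-like cells also carry, the log2 difference of Alk was 3.03 (adjusted p = 0.000741).

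The wider pathway was described with 157 further genes in the table, of which 114 could be tested between TFCOs and tissue. Of these 7 were called as higher in TFCOs and 5 as lower (limma), beside 5.03% and 2.65% of all genes, and their median log2 difference was 0.16 against 0.19 over all genes. None was called between late and early or between cycling and noncycling TFCO cells, where 27 of 114 and 18 of 111 had an unadjusted p under 0.05, beside 19.9% and 13.8% of all genes tested.

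Some genes downstream of the receptors were among those higher in TFCOs. Of 10 transcriptional targets tested, 2 were called as higher and none as lower, beside 5.03% and 2.65% of all genes. The same shares stand beside the counts of the lists below. Etv1, another target, was at 0.642 and 0.495 UMIs per 10000 in tissue and lower in all TFCO samples, at 0.185 to 0.401. It was not called (log2 difference -0.43, SE 0.24, limma, adjusted p = 0.253). Etv5, a transcription factor induced by FGF and MAPK signaling, was at 0 and 0.00979 UMIs per 10000 in the TFC-like cells of tissue. The late samples were at 1.85, 0.961 and 1.84 and the early ones at 0.865 and 1.01 (log2 difference 1.75, SE 0.34, adjusted p = 0.00984). Egr1, an immediate early gene of the same cascade, was at 0.0335 and 0.630 in tissue and at 2.01 to 3.40 in TFCOs (1.94, SE 0.38, adjusted p = 0.0106).

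Of 20 feedback inhibitors, 2 were called as higher. Errfi1, which encodes the EGFR inhibitor MIG6, was at 0.180 and 0.137 UMIs per 10000 in tissue and at 0.884 to 2.90 in TFCOs (log2 difference 1.53, SE 0.39, adjusted p = 0.0329). Spred1, an inhibitor of RAS-MAPK signaling, was at 0.237 and 0.251 against 1.27 to 2.38 (1.52, SE 0.31, adjusted p = 0.0131). Other members of this list did not pass, such as Dusp6 (0.87, adjusted p = 0.0936) and Spry2 (-0.21, adjusted p = 0.371).

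Of 15 ligands, 1 was called. Areg, which encodes the EGFR ligand amphiregulin, was at 0 and 0.155 UMIs per 10000 in tissue and at 0.773 to 1.86 in TFCOs (log2 difference 1.48, SE 0.34, adjusted p = 0.0219). Of 29 adaptor and cascade genes only Pik3r1, the regulatory subunit of PI3K, was called, at 0.324 and 0.498 in tissue and at 1.22 to 2.06 in TFCOs (1.29, SE 0.35, adjusted p = 0.0396). When levels were taken from summed UMIs, which gives the 2 deepest tissue cells more weight, none of Etv5, Egr1, Errfi1, Spred1 and Pik3r1 was called, with adjusted p-values of 0.0616 to 0.355. Without early sample 1 the adjusted p was 0.0721 for Errfi1 and Pik3r1 and 0.0512 for Areg.

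Of 29 other receptors, 1 was called as higher and 4 as lower. Epha7, a receptor of membrane-bound ephrins, was at 0.361 and 0.924 UMIs per 10000 in tissue and at 3.17 to 4.44 in TFCOs (log2 difference 1.94, SE 0.37, adjusted p = 0.00953). Flt1, a VEGF receptor of endothelial cells, was at 1.80 and 2.13 against 0.399 to 0.769 (-1.19, SE 0.27, adjusted p = 0.0192), and Ephb2 was at 1.65 and 1.89 against 0.554 to 0.669 (-1.03, SE 0.26, adjusted p = 0.0289). Flt1 was at 32.9 and 32.6 in endothelial-like cells, and the 11 endothelial markers summed to 6.09 and 10.8 in the tissue TFC-like cells, with 9 and 10 detected, against 0.810 to 1.74 in TFCOs, with 6 to 9 detected. The part of endothelial RNA in this difference was not tested. Of 12 co-receptors, Gfra2, a co-receptor through which neurturin signals to RET, was called as lower, from 1.12 and 0.923 in tissue to 0.0486 to 0.244 in TFCOs (-1.22, SE 0.22, adjusted p = 0.00641). From summed UMIs neither Ephb2 (adjusted p = 0.302) nor Gfra2 (adjusted p = 0.291) was called, and without early sample 1 Ephb2 was at 0.0518.

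**Figure D5:**
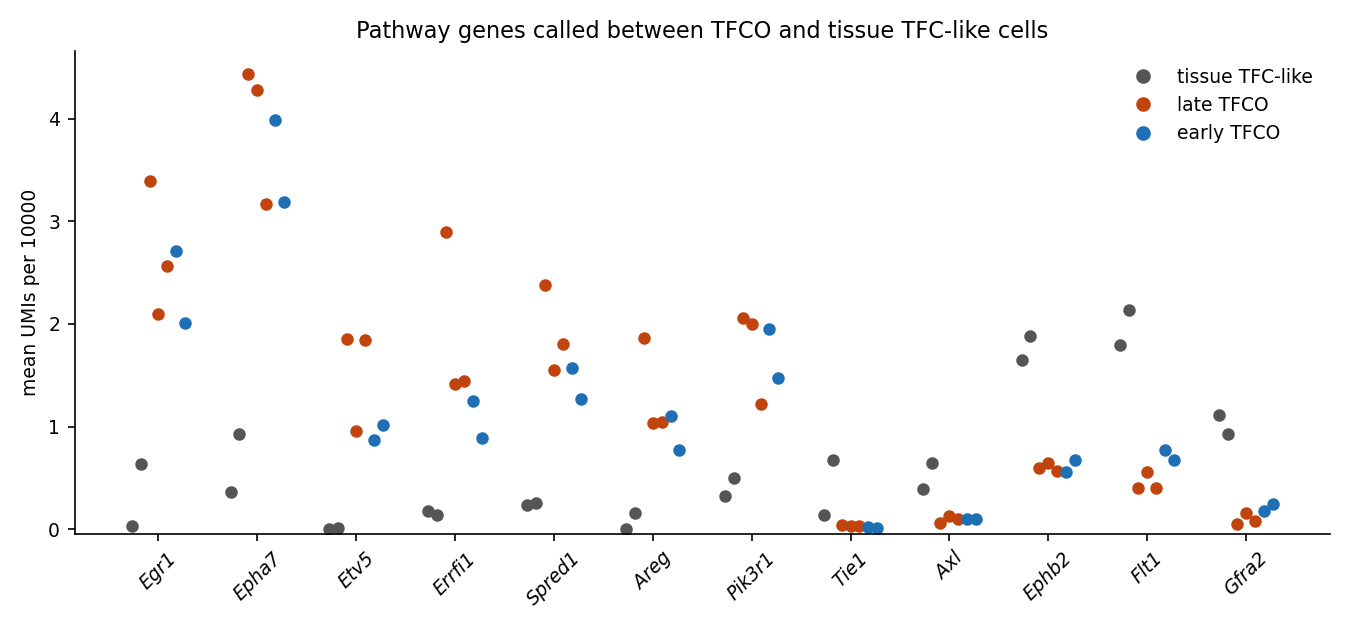
Mean UMIs per 10000 in each sample for the 12 pathway genes called between TFCOs and tissue TFC-like cells (gray tissue, red late, blue early), ordered by log2 difference. The 7 genes from Egr1 to Pik3r1 are higher and the 5 genes from Tie1 to Gfra2 are lower in all TFCO samples.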

How the data were processed

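Single-cell transcriptomes of 2 tissue, 3 late TFCO and 2 early TFCO samples were analyzed as labelled. The number of replicates stated in the series text is not that of the 3 late samples. The authors deposited 1 table of natural log values, ln(1 + UMIs per 10000), for each gene and cell. Per the submitters' processing notes, Trim Galore 0.4.3, STAR 2.5.3a and Seurat were used with GRCm38/mm10. The gene annotation and cell filter are not given in the sources used here.

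The log was undone and each cell was divided by its smallest value, which gave whole numbers for 100% of values within 0.01. These were taken as UMIs. Tissue cells were clustered with scanpy 1.11.5 (2000 variable genes, 30 components, 15 neighbors, Leiden at resolution 1), without the members, the pathway lists and genes whose correlation by barcode was above 0.05. Clusters were named from marker lists. One cluster of 77 cells, led by hemoglobin genes, was left unnamed. Doublets were not called.

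Levels were averaged over cells per sample, and log2(mean + 0.5) was fitted in R 4.3.3 by limma 3.58.1 with a trended empirical Bayes step. Estimated weights were 0.325 (tissue) and 1.57 (TFCO). Values are normalized, so no count model was used. Genes at a mean of at least 0.1 were tested, with Benjamini-Hochberg adjustment over all of them and a threshold of 0.05. The TFCO mean is that of the late and early groups. Cycling and noncycling cells were fitted with the sample as a term. Intervals are at 95%. A count of 0 was read as allowing 3 UMIs among the pooled UMIs of those cells. The fits were tested on simulated data.

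All 10 members are named. Of the pathway genes called, at most the 10 with the largest log2 difference are named, and for a member at 0.5 or more in a profile also the 2 genes of highest correlation. Alkal1, Alkal2, Ptn, Dusp6, Spry2 and Etv1 were named outside this rule after their values were seen. The members and lists were chosen with earlier results of these data known, so their p-values are not independent evidence. Alternatives covered the pseudocount, filters, weights, depth, centering, cell choice, replicate block and each sample left out.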

Additional observations from a re-analysis of the deposited data

Results flagged for a closer look

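Alk was also counted in TFCO cells of fewer than 1000 UMIs, which no comparison above used. Its mean there was 2.65, 8.58 and 2.46 UMIs per 10000 in late samples 1, 2 and 3 and 7.47 and 2.61 in early samples 1 and 2. The tissue cells of the same depth, of all types together, were at 1.25 and 1.43, so every TFCO sample was above both tissue samples. These means rest on 5, 11, 13, 64 and 8 UMIs in the TFCO samples and on 7 and 8 in tissue. Each TFCO mean was below that of the deeper cells of its sample, at 3.36, 15.4 and 8.77 (late) and 11.1 and 6.15 (early). All tissue cells of at least 1000 UMIs were at 1.25 and 1.03. Tissue TFC-like cells were shallower than TFCO cells, at medians of 2374 and 2215 UMIs. The part of depth in the differences of Alk was not tested. For the log2 difference between cycling and noncycling cells, Dixon's test over the 5 TFCO samples found no sample apart for the 9 members tested between these states. Ret was not among them, and levels were not tested this way, since no group held more than 3 samples.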

How the results depend on the processing

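Between TFCOs and tissue, 930 genes were called, against 4304 with equal weights, 249 from summed UMIs, 371 in cells of at least 2000 UMIs, 6076 with all tissue cells and 538 to 5556 when a sample was left out. With each sample centered on its median gene, 219 of 794 calls were higher in TFCOs, against 609 of 930. Alk kept its direction under all 23 alternatives (2.38 to 3.55, adjusted p 0.000505 to 0.118), but its call was lost in 5, namely with a pseudocount of 1, no filter, summed UMIs, cells of at least 2000 UMIs and without early sample 1. Ret kept its direction in the 20 alternatives that tested it (-1.51 to -0.34, adjusted p 0.000184 to 0.0994) and lost its call in 7. Erbb3 was called in 3 alternatives and Fgfr1 in 6. The cause of these changes was not tested.

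Members near 0 changed sign. Centering gave -0.16 for Egfr, -0.19 for Erbb2, -0.17 for Fgfr2 and -0.077 for Mdk. Erbb2 was -0.000328 with a pseudocount of 1, -0.089 from summed UMIs, -0.28 in cells of at least 500 UMIs, -0.10 with TFC-like cells chosen by marker score and -0.0097 in shared barcodes. Fgfr2 was -0.24 at 500 UMIs, -0.069 by marker score and -0.18 against all tissue cells, where Mdk was -0.050. Leaving out a sample gave -0.51 to 0.19 for Met, -0.17 to 0.23 for Egfr, -0.28 to 0.30 for Erbb2, -0.12 to 0.17 for Fgfr2 and -0.12 to 0.15 for Mdk.

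Between late and early TFCOs, 2 genes were called, against 4 with a pseudocount of 0.1, 1 with a filter at 0.5, without a filter, with equal weights or from summed UMIs, 226 in cells of at least 500 UMIs, 695 with a term for late sample 2 and early sample 1, and 1 to 1119 when a sample was left out, the highest without early sample 1. No member was called in any of them. Alk was 0.10 with the added term. Met was 0.0051 with a pseudocount of 0.1, 0.023 from summed UMIs and 0.016 at 2000 UMIs, and Egfr was -0.053 from summed UMIs. Leaving out a sample gave -0.56 to 0.46 for Alk, -0.14 to 0.016 for Ret, -0.38 to 0.28 for Met, -0.038 to 0.15 for Egfr and -0.13 to 0.011 for Mdk.

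Between cycling and noncycling cells, 297 genes were called, against 197 with a filter at 0.5, 50 without a filter, 499 from summed UMIs, 173 with 1 UMI taken as cycling, 72 when called after thinning, 149 without the sample as replicate block, and 152 to 366 when a sample was left out. Alk kept its direction in all 16 alternatives (0.25 to 0.66, adjusted p 0.00193 to 0.689) and lost its call in 3, without a filter, at 1 UMI and without the block. With 1 UMI, Egfr was 0.063 and Erbb3 -0.096, and Erbb3 was -0.00165 with centering. Leaving out a sample gave -0.21 to 0.0088 for Met and -0.066 to 0.080 for Erbb3.

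Sample numbers follow the order of the deposited list and do not pair tissue with TFCOs. With them as a replicate block, 833 genes were called between TFCOs and tissue, Alk was at 2.92 (adjusted p = 0.0281) and Ret at -0.58 (adjusted p = 0.0747). Depth limits the members in tissue TFC-like cells, where Fgfr3 had 0, Mdk 3, Fgfr1 12, Erbb2 14, Erbb3 21 and Ret 29 UMIs.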
